A study of Homo sapiens with 6 samples.

Results

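The genes described here encode the structural proteins of the extracellular matrix and the integrin receptors that bind them. They were chosen by name from the array's annotation, taking every gene whose probe sets carry a single symbol of the laminin (LAMA, LAMB, LAMC), collagen (COL), fibulin (FBLN), fibrillin (FBN), lysyl oxidase (LOX, LOXL), nidogen (NID) and numbered integrin (ITGA, ITGB) families, together with FN1, LUM, DCN, BGN and SPARC. The rule uses gene names and no intensity, although it was set with earlier results of these data known. The rule found 90 genes among 19775 with a probe set of a single symbol, and each is represented by its brightest probe set. Of the 90, 51 were above the filter on dim probe sets and were tested among 12413 genes, and 39 were dim.

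The cells were VCaP, an established human prostate cancer line that expresses the androgen receptor and carries a TMPRSS2-ERG gene fusion. They carried PRMT5 shRNA 1, PRMT5 shRNA 2 or a non-targeting control hairpin (NTC shRNA), with 2 arrays for each hairpin. PRMT5 is an enzyme that methylates arginine residues of histones and of splicing proteins. All 6 samples, the NTC ones included, received doxycycline at 100 ng/ml for 3 days, so no array shows cells without the drug, and 1 cell line limits how far the values reach. Nothing in the labels tells if the 2 arrays of a hairpin came from separate cultures. Each p-value is therefore set against the spread of these arrays alone, and that spread may be technical.

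Basement membranes are thin sheets under epithelia, built of a laminin network and a type IV collagen network that nidogens and proteoglycans join. Fibril-forming collagens give connective tissue its tensile strength, fibrillins and fibulins build elastic microfibrils, and lysyl oxidases cross-link collagen and elastin. Integrins are pairs of an alpha and a beta chain that span the cell membrane and bind these proteins. In the prostate, luminal epithelial cells rest on basal cells and a basement membrane, and most interstitial matrix is made by fibroblasts and smooth muscle cells of the stroma.

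PRMT5 itself, the check of the labels, had intensities of 135.6 and 133.8 with PRMT5 shRNA 1 and of 291.2 and 321.0 with PRMT5 shRNA 2, against 809.8 and 880.5 with NTC. Array medians lay between 14.8 and 16.4, and intensities near them are close to the array's background. Arrays of a group correlated at 0.996 to 0.997 over the tested genes, and arrays of different groups at 0.976 to 0.991. All 10 prostate luminal markers on the array were above the filter. Of 10 fibroblast and smooth muscle markers 2 were above it (ACTA2 and MYH11), with PDGFRA, PDGFRB, THY1, VIM and TAGLN among the dim ones. Of 5 endothelial markers 0 were above it, and of 4 immune markers only LYZ was. No marker of these lists was at 0 in every array.

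Matrix and integrin genes moved in both directions after PRMT5 knockdown. With both PRMT5 hairpins averaged against NTC, 22 of the 51 tested genes were called (43.1%), 10 higher and 12 lower, beside 32.4% of all tested genes (15.4% higher and 17.0% lower). LAMA2, FBLN2 and COL28A1 were among the genes that rose and COL14A1 and FBN1 among those that fell. Except for FBLN2, these were near background in 1 of the conditions or not far above it, so that the size of their differences depends on the constant added before the logarithm. The integrin alpha chains ITGA9, ITGA1 and ITGA2 fell, and the chains of the main epithelial laminin moved by small amounts in opposite directions. A gene is called here at a limma adjusted p under 0.05 (Benjamini-Hochberg over all 12413 genes), and log2 differences are on the log2(intensity + 16) scale with their standard error (SE). The median log2 difference of the 51 genes was -0.01, as was that of all tested genes, and the median absolute difference was 0.20, beside 0.14. LAMA2 and BGN were below the array median in both NTC arrays and COL14A1 in all 4 knockdown arrays, so these passed the filter only through the group in which they were brighter. In RNA from whole cultures, fewer cells expressing a gene and less RNA per cell cannot be told apart.

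**Figure D1:**
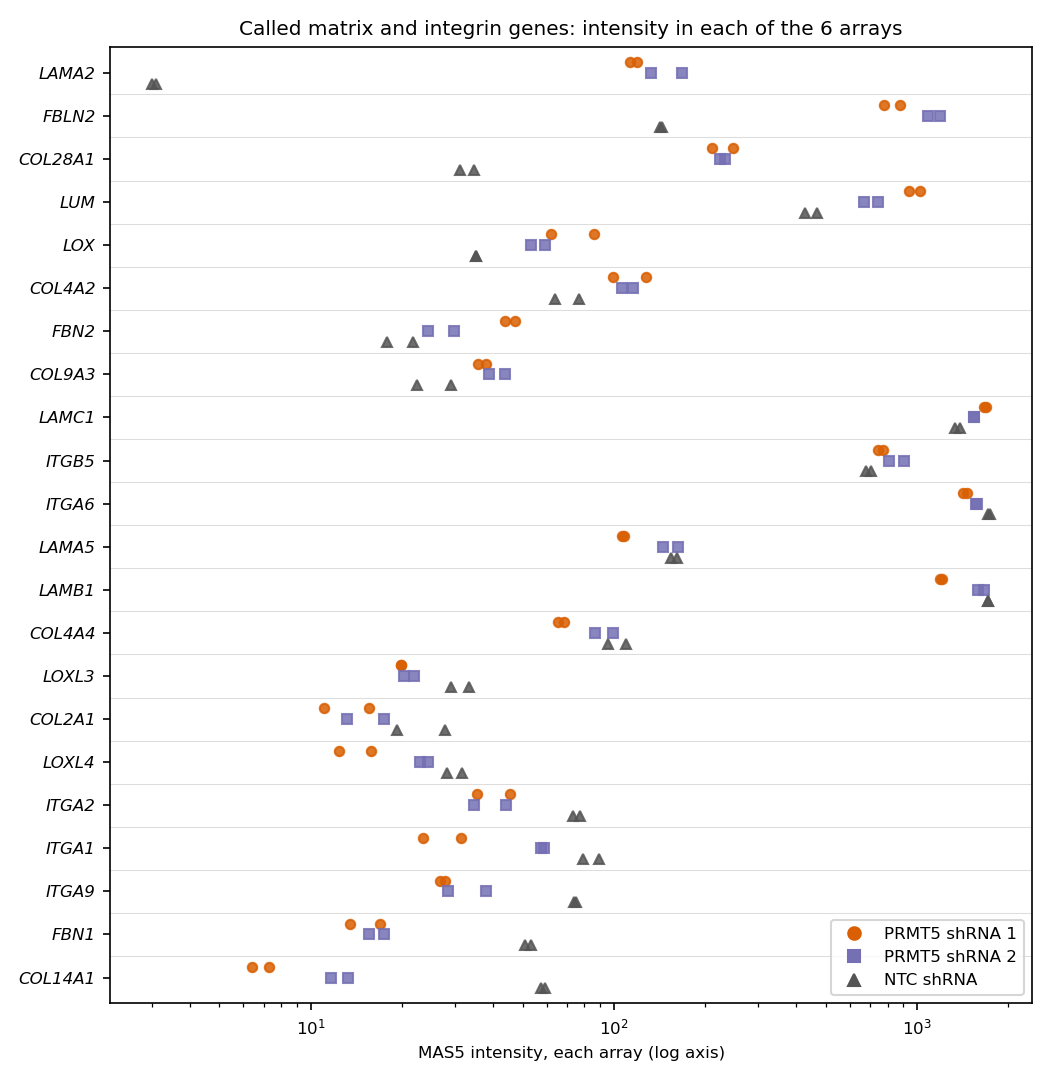
Intensity on a log axis of the 22 called genes in each array, with PRMT5 shRNA 1 (circles), PRMT5 shRNA 2 (squares) and NTC shRNA (triangles); genes run from the highest averaged log2 difference at the top to the lowest at the bottom. LAMA2 lies at 112.9 to 167.8 in knockdown arrays and at 3.0 and 3.1, below the array medians, in NTC arrays, and LAMA5 and COL4A4 overlap between PRMT5 shRNA 2 and NTC.

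Laminins are trimers of an alpha, a beta and a gamma chain. LAMA2, the alpha chain of muscle and nerve basement membranes, had intensities of 112.9 and 119.1 with PRMT5 shRNA 1 and of 132.9 and 167.8 with PRMT5 shRNA 2, against 3.0 and 3.1 with NTC. All 4 knockdown arrays were above both NTC arrays, which sat at the bottom of the array's range. The log2 difference was 2.96 ± 0.10 (SE, limma, adjusted p = 5.9e-09). The other kept probe sets of LAMA2 gave 2.76 and 2.21. Because the NTC signal is near background, the size depends on the added constant, with 3.46 for an added 1 and 1.55 for an added 64.

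The chains LAMA5, LAMB1 and LAMC1 form the main laminin of epithelial basement membranes, and in these cells they did not move together. LAMC1 had intensities of 1666.5 and 1695.3 with PRMT5 shRNA 1 and of 1542.7 and 1544.4 with PRMT5 shRNA 2, against 1330.4 and 1391.5 with NTC. It rose by 0.24 ± 0.05 (SE, limma, adjusted p = 0.0025), and its other kept probe set gave 0.47. LAMB1 had intensities of 1195.0 and 1209.2 with PRMT5 shRNA 1 and of 1593.8 and 1663.1 with PRMT5 shRNA 2, against 1712.3 and 1720.6 with NTC. All 4 knockdown arrays lay below NTC, those of PRMT5 shRNA 2 only just. LAMB1 fell by 0.29 ± 0.05 (limma, adjusted p = 0.00073) in the average and by 0.51 ± 0.05 with PRMT5 shRNA 1, while PRMT5 shRNA 2 gave -0.08 ± 0.05, which did not pass. LAMA5 showed the same split, with 108.3 and 106.4 for PRMT5 shRNA 1 and 145.4 and 163.1 for PRMT5 shRNA 2, against 155.0 and 161.7 for NTC. Its averaged difference was -0.27 ± 0.08 (limma, adjusted p = 0.025).

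Of the other tested laminin chains, LAMB2 (0.14 ± 0.08, SE), LAMC3 (-0.01 ± 0.14) and LAMB4 (-0.08 ± 0.12) did not pass in the average. LAMB2, a beta chain of neuromuscular and kidney basement membranes, was called with PRMT5 shRNA 2 alone, by 0.36 ± 0.10 (limma, adjusted p = 0.022). In all, 2 of 7 tested laminin chains rose and 2 fell in the average, beside 15.4% of all tested genes higher and 17.0% lower. With PRMT5 shRNA 2 alone 3 chains were called higher and 0 lower, beside 13.1% and 8.42% of all genes. LAMA1, LAMA4 and LAMB3 were dim. Without NTC replicate 1, LAMC1 (0.21, limma, adjusted p = 0.057) and LAMA5 (-0.30, adjusted p = 0.097) lost their averaged calls. LAMA5 also lost it without NTC replicate 2 (-0.24, adjusted p = 0.17) and without PRMT5 shRNA 1 replicate 2 (-0.26, adjusted p = 0.059).

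Type IV collagen is the network collagen of basement membranes, and its genes lie head to head in pairs that share a promoter region. COL4A2 had intensities of 127.5 and 99.2 with PRMT5 shRNA 1 and of 115.6 and 106.3 with PRMT5 shRNA 2, against 64.2 and 76.6 with NTC. Knockdown and NTC arrays did not overlap, and COL4A2 rose by 0.57 ± 0.11 (SE, limma, adjusted p = 0.0022). Its other kept probe set gave 0.14. Its neighbour COL4A1 was dim, with intensities of 0.4 and 4.4 (PRMT5 shRNA 1), 3.5 and 4.4 (PRMT5 shRNA 2), and 1.8 and 6.7 (NTC). Levels of different probe sets cannot be compared, so these values do not give the ratio of the pair. The 126 bases between the starts of these genes (RefSeq, GRCh38.p14, chr13:110307158-110307283, given on the strand of COL4A2) are shown because both genes are transcribed away from them. Capitals mark a GC box (GGGCGG) and a CCAAT box (CCAAT), sought on both strands.
COL4A1-COL4A2 interval: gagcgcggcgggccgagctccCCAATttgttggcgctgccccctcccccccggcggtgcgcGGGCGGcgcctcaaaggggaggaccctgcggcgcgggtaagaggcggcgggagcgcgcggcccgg

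COL4A4, an alpha chain of the type IV network of kidney basement membranes, had intensities of 68.6 and 65.6 with PRMT5 shRNA 1 and of 86.6 and 99.4 with PRMT5 shRNA 2, against 109.5 and 95.5 with NTC. It fell by 0.32 ± 0.09 (SE, limma, adjusted p = 0.023) in the average and by 0.51 ± 0.11 with PRMT5 shRNA 1. The arrays of PRMT5 shRNA 2 overlapped NTC. A second kept probe set of COL4A4 gave 0.02, and the averaged call was lost without NTC replicate 1 (-0.23, limma, adjusted p = 0.23) and without PRMT5 shRNA 1 replicate 2 (-0.30, adjusted p = 0.058). Its neighbour COL4A3 was lower in all 4 knockdown arrays but did not pass (-0.26 ± 0.11), except without PRMT5 shRNA 2 replicate 2 (-0.32, limma, adjusted p = 0.040). The X-linked pair COL4A5 (0.08 ± 0.09) and COL4A6 (0.03 ± 0.13) did not pass, and their groups overlapped. COL18A1, the source of endostatin, did not pass in the average (0.03 ± 0.08).

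Among the 8 tested collagens outside the basement membrane and fibril-forming classes, 2 rose and 1 fell, beside 15.4% of all tested genes higher and 17.0% lower. COL28A1, a collagen found beside peripheral nerve basement membranes, had intensities of 248.2 and 211.5 with PRMT5 shRNA 1 and of 224.7 and 232.1 with PRMT5 shRNA 2, against 34.7 and 31.2 with NTC. The hairpins overlapped each other and all 4 knockdown arrays were far above NTC. The log2 difference was 2.32 ± 0.09 (SE, limma, adjusted p = 1.0e-08), and a second kept probe set gave 1.5. With an added 1 and an added 64 the difference was 2.76 and 1.59. COL14A1, a collagen on the surface of fibrils, moved the other way, with 6.4 and 7.3 for PRMT5 shRNA 1 and 13.3 and 11.7 for PRMT5 shRNA 2, against 57.5 and 59.3 for NTC. It fell by 1.54 ± 0.09 (limma, adjusted p = 5.0e-07), and its second kept probe set gave -0.78. As its knockdown signal is near background, the difference was -2.53 with an added 1 and -0.73 with an added 64. COL9A3, of the fibril-associated type IX, rose by 0.40 ± 0.10 (limma, adjusted p = 0.012), with 38.0 and 35.6 for PRMT5 shRNA 1 and 38.8 and 43.9 for PRMT5 shRNA 2, against 22.5 and 29.1 for NTC. It lost its call without NTC replicate 1 (0.29, limma, adjusted p = 0.16). COL6A1 (0.10 ± 0.13), COL7A1 of anchoring fibrils (-0.17 ± 0.10) and COL16A1 (-0.01 ± 0.10) did not pass.

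Of 6 tested fibril-forming collagens, 0 rose and 1 fell, beside 15.4% of all tested genes higher and 17.0% lower. The gene that fell was COL2A1, the main collagen of cartilage, at 11.1 and 15.6 with PRMT5 shRNA 1 and 13.2 and 17.4 with PRMT5 shRNA 2, against 19.3 and 27.8 with NTC. These values are near the array medians, and the difference of -0.38 ± 0.12 (SE, limma, adjusted p = 0.036) did not pass without NTC replicate 2 (-0.22, adjusted p = 0.32), PRMT5 shRNA 1 replicate 1 (-0.32, adjusted p = 0.090) or PRMT5 shRNA 2 replicate 1 (-0.33, adjusted p = 0.092). COL1A1, a chain of the main collagen of stroma, did not pass (0.10 ± 0.12), and its partner COL1A2 was dim, as was COL3A1. COL5A2 (-0.13 ± 0.09), which regulates fibril diameter, did not pass in the average.

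Of 6 tested genes among fibulins, fibrillins and fibronectin, 2 rose and 1 fell, beside 15.4% of all tested genes higher and 17.0% lower. FBLN2, which bridges basement membranes and microfibrils, had intensities of 882.4 and 779.7 with PRMT5 shRNA 1 and of 1193.3 and 1089.9 with PRMT5 shRNA 2, against 141.9 and 144.4 with NTC. It rose by 2.64 ± 0.07 (SE, limma, adjusted p = 1.0e-09), and no other kept probe set of it was on the array. With an added 1 and an added 64 the difference was 2.76 and 2.32. FBLN1 did not pass (-0.03 ± 0.10), and 1 of its other kept probe sets gave -0.49. FBLN7 (-0.03 ± 0.10) did not pass either, and FBLN5 was dim. FBN1, the fibrillin of adult microfibrils, had intensities of 13.5 and 17.0 with PRMT5 shRNA 1 and of 15.6 and 17.5 with PRMT5 shRNA 2, against 53.3 and 50.9 with NTC. It fell by 1.10 ± 0.10 (limma, adjusted p = 1.0e-05), and its knockdown arrays lay close to the array medians. With an added 1 and an added 64 the difference was -1.66 and -0.54. FBN2, the fibrillin of developing tissue, had 43.7 and 47.1 for PRMT5 shRNA 1 and 24.3 and 29.6 for PRMT5 shRNA 2, against 21.8 and 17.9 for NTC. FBN2 rose by 0.52 ± 0.10 in the average (limma, adjusted p = 0.0028) and by 0.78 ± 0.12 with PRMT5 shRNA 1, while PRMT5 shRNA 2 gave 0.26 ± 0.12, which did not pass. FN1, fibronectin, a ligand of many integrins, did not pass on its brightest probe set (0.07 ± 0.11). Its arrays overlapped there at 15.7 to 25.5, at or just above the array medians. The other kept probe sets of FN1 gave 0.34, 0.21, 0.19 and -0.00.

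The bases upstream of some of the called genes are given from the RefSeq table, and COL14A1, which fell most, is not among them. LAMA2, FBLN2 and COL28A1 are shown as the genes that rose most, and FBN1 and ITGA2, a collagen-binding integrin chain, as genes that fell. LUM and ITGA9 have no entry in that table, which covers 17 of the 22 called genes. Each sequence is the 250 bases before an annotated start (GRCh38.p14), in the direction of transcription, and capitals mark a motif found on either strand. The GC box was searched as GGGCGG and the CCAAT box as CCAAT. The other motifs were the TATA box with the letters TATAAA, the AP-1 motif with the letters TGANTCA and the hypoxia core with the letters ACGTG. The locations are chr6:128882888-128883137 (LAMA2, plus strand), chr3:13548875-13549124 and chr3:13568490-13568739 (FBLN2, plus), chr7:7535874-7536123 (COL28A1, minus), chr15:48644971-48645220 (FBN1, minus) and chr5:52989102-52989351 (ITGA2, plus).
LAMA2: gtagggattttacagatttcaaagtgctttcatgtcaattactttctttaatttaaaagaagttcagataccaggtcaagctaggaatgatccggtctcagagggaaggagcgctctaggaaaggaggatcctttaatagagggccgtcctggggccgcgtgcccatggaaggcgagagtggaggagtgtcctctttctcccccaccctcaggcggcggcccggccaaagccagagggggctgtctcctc
FBLN2 first start: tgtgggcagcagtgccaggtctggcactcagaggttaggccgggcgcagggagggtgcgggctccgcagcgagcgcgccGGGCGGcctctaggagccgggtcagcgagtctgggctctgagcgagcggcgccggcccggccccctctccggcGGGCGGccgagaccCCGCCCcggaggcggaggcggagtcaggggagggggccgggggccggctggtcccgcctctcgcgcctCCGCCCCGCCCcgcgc
FBLN2 second start: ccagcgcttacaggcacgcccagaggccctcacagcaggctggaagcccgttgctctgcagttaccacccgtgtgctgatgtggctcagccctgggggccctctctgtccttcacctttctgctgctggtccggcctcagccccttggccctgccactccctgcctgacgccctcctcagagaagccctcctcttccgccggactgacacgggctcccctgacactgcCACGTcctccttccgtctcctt
COL28A1: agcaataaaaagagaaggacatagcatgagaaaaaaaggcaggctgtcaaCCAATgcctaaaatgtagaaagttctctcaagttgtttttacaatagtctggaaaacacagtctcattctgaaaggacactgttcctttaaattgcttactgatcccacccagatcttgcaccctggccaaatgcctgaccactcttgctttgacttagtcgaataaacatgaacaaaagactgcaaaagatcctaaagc
FBN1: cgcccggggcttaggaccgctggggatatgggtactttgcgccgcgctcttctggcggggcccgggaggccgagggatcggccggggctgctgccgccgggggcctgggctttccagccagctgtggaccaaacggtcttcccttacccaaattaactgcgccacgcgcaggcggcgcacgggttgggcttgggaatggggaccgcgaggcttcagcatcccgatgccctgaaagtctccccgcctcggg
ITGA2: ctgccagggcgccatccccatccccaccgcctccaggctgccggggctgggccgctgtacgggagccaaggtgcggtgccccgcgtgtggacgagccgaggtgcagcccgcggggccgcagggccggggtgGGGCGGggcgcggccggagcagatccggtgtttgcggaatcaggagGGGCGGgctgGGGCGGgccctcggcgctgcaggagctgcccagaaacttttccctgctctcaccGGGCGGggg

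The first FBLN2 window held 5 GC boxes and the ITGA2 window 4, counting overlapping matches, and the second FBLN2 window held 1 hypoxia core. The COL28A1 window held 1 CCAAT box, and the LAMA2 and FBN1 windows held 0 matches to any of these motifs. No TATA box or AP-1 match was in these windows. Over all 35116 windows of this length in the table, 42.6% held a GC box, 32.0% a CCAAT box, 10.7% a TATA box, 6.57% an AP-1 match and 18.5% a hypoxia core. A match describes letters only and says nothing of a factor that binds there.

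All 5 lysyl oxidases were tested, and 1 rose and 2 fell, beside 15.4% of all tested genes higher and 17.0% lower. LOX, which oxidises lysines of collagen and elastin so that they cross-link, had intensities of 86.3 and 62.2 with PRMT5 shRNA 1 and of 59.3 and 53.2 with PRMT5 shRNA 2, against 35.1 and 35.0 with NTC. It rose by 0.65 ± 0.11 (SE, limma, adjusted p = 0.0013). LOXL4 had 15.8 and 12.4 for PRMT5 shRNA 1 and 24.3 and 23.0 for PRMT5 shRNA 2, against 28.2 and 31.6 for NTC, and fell by 0.41 ± 0.10 (limma, adjusted p = 0.0094). LOXL3 had 19.9 and 19.8 for PRMT5 shRNA 1 and 20.3 and 22.0 for PRMT5 shRNA 2, against 29.0 and 33.4 for NTC, and fell by 0.37 ± 0.10 (limma, adjusted p = 0.013). Both genes had intensities not far above the array medians, and without NTC replicate 2 LOXL4 (-0.36, adjusted p = 0.090) and LOXL3 (-0.30, adjusted p = 0.13) did not pass. LOXL1 (0.07 ± 0.10) and LOXL2 (-0.20 ± 0.10) did not pass.

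Of the small proteoglycans and the proteins that join basement membrane networks, 3 of 6 were tested. LUM, lumican, a leucine-rich proteoglycan that binds collagen fibrils, had intensities of 942.9 and 1020.0 with PRMT5 shRNA 1 and of 666.6 and 742.2 with PRMT5 shRNA 2, against 468.5 and 428.3 with NTC. The 3 groups did not overlap, and LUM rose by 0.87 ± 0.07 (SE, limma, adjusted p = 3.2e-06), with 0.72 on its other kept probe set. BGN, biglycan, did not pass in the average (0.30 ± 0.12) but was called higher with PRMT5 shRNA 2 (0.47 ± 0.14, limma, adjusted p = 0.037). It was below the array medians with NTC and PRMT5 shRNA 1, and passed the filter only through the arrays of PRMT5 shRNA 2. NID2 did not pass (0.17 ± 0.12). DCN, NID1 and SPARC were dim.

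Among integrins, 4 of the 7 tested alpha chains fell and 0 rose, beside 15.4% of all tested genes higher and 17.0% lower. ITGA9, whose ligands include tenascin C, had intensities of 26.7 and 27.7 with PRMT5 shRNA 1 and of 28.4 and 37.9 with PRMT5 shRNA 2, against 75.1 and 74.2 with NTC. It fell by 0.98 ± 0.10 (SE, limma, adjusted p = 3.4e-05). ITGA1 and ITGA2 encode alpha chains of collagen receptors. ITGA1 had 31.4 and 23.4 for PRMT5 shRNA 1 and 57.5 and 58.9 for PRMT5 shRNA 2, against 79.3 and 89.7 for NTC, and fell by 0.83 ± 0.10 (limma, adjusted p = 0.00013). ITGA2 had 35.5 and 45.3 for PRMT5 shRNA 1 and 44.0 and 34.5 for PRMT5 shRNA 2, against 77.3 and 73.3 for NTC, and fell by 0.71 ± 0.11 (limma, adjusted p = 0.00055). Their other kept probe sets gave -0.41 (ITGA1) and -0.57 (ITGA2). For each of these 3 chains, all knockdown arrays were below both NTC arrays.

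ITGA6, an alpha chain of laminin receptors of epithelia, had intensities of 1457.7 and 1420.9 with PRMT5 shRNA 1 and of 1579.3 and 1563.8 with PRMT5 shRNA 2, against 1716.5 and 1743.0 with NTC. The groups did not overlap, but the fall was small (-0.20 ± 0.05, SE, limma, adjusted p = 0.0065). It did not pass without NTC replicate 1 (-0.21, adjusted p = 0.056) or NTC replicate 2 (-0.19, adjusted p = 0.080). The laminin receptor chain ITGA3 (-0.19 ± 0.11), the collagen receptor chain ITGA10 (-0.15 ± 0.14) and the fibronectin receptor chain ITGA5 (0.00 ± 0.09) did not pass. ITGAV (0.10) and ITGAE (-0.00), the tested integrin alpha chains named by letter, did not pass either.

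ITGB1, the beta chain that pairs with ITGA1, ITGA2, ITGA6 and ITGA9, did not pass. Its intensities were 2420.4 and 2377.1 with PRMT5 shRNA 1 and 2285.6 and 2461.4 with PRMT5 shRNA 2, against 2531.0 and 2402.0 with NTC, and the groups overlapped (-0.05 ± 0.05, SE). ITGB5, which pairs with ITGAV to bind vitronectin, had 744.4 and 771.0 for PRMT5 shRNA 1 and 906.2 and 807.5 for PRMT5 shRNA 2, against 706.4 and 681.0 for NTC. It rose by 0.21 ± 0.06 (limma, adjusted p = 0.021), with 3 other kept probe sets at 0.17, 0.41 and -0.18. The call was lost without NTC replicate 1 (0.24, adjusted p = 0.077), NTC replicate 2 (0.18, adjusted p = 0.16) or PRMT5 shRNA 1 replicate 2 (0.20, adjusted p = 0.059). ITGB8 did not pass (-0.08 ± 0.11). ITGB2, ITGB3, ITGB4 and ITGB7 and the alpha chains ITGA4, ITGA7, ITGA8 and ITGA11 were dim.

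**Figure D2:**
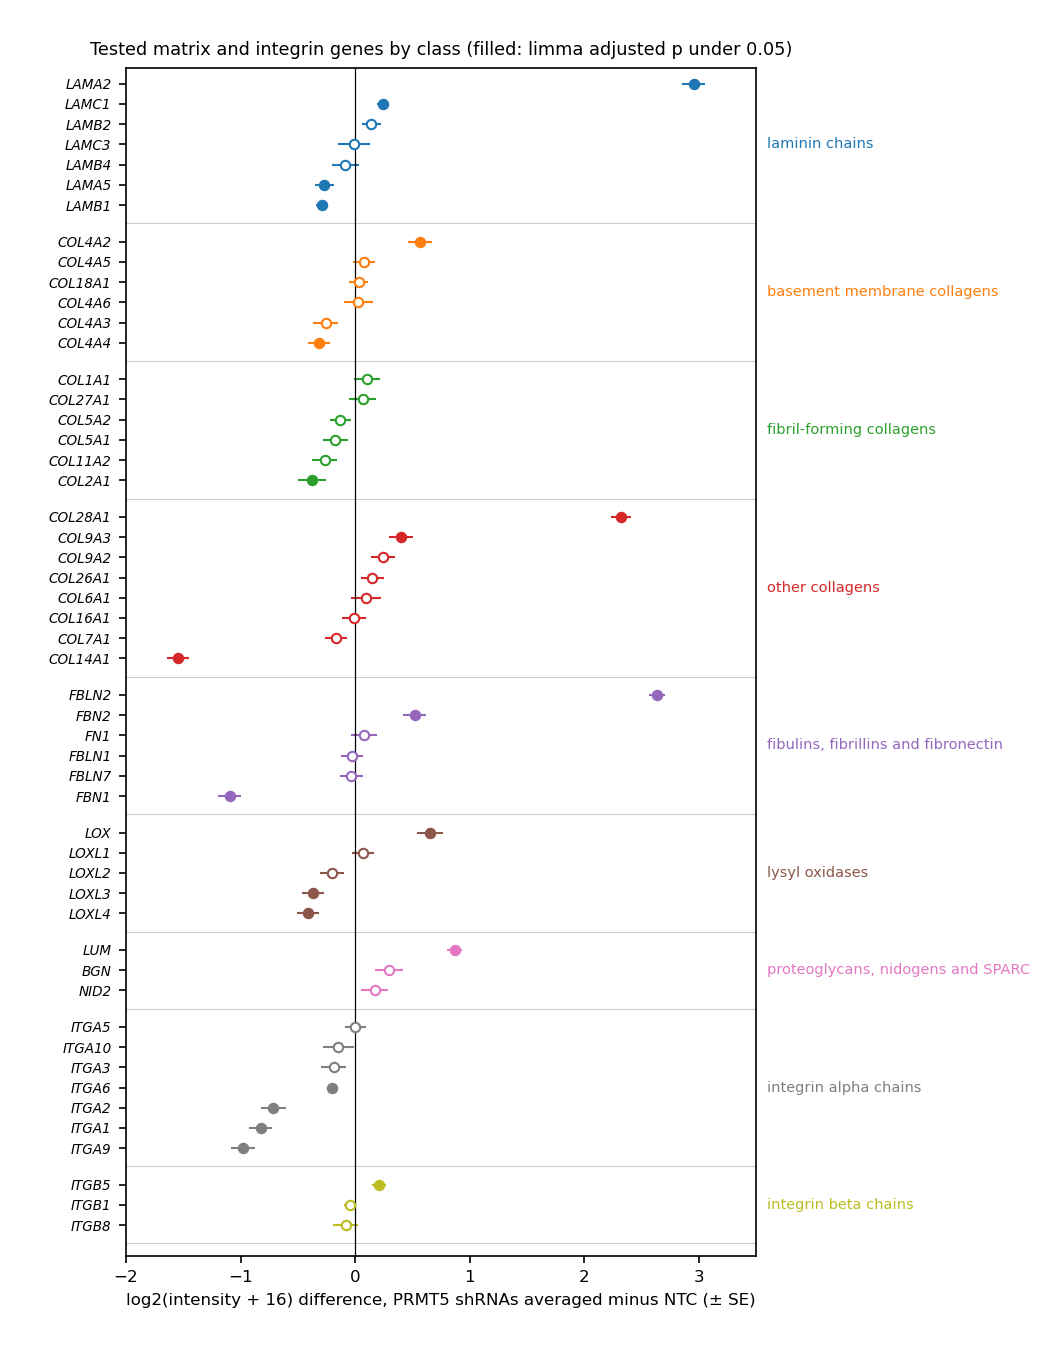
Averaged log2(intensity + 16) difference of PRMT5 shRNA arrays minus NTC arrays, with SE bars, for the 51 tested genes by class; filled points passed limma at an adjusted p under 0.05. The called integrin alpha chains lie to the left of 0, and the other classes with several called genes hold points on both sides.

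Each hairpin was also set against the same NTC arrays. With PRMT5 shRNA 1, 22 of 51 genes were called (9 higher, 13 lower), beside 39.3% of all genes (16.2% higher, 23.2% lower). With PRMT5 shRNA 2, 20 were called (13 higher, 7 lower), beside 21.5% of all genes (13.1% higher, 8.42% lower). The count for PRMT5 shRNA 2 fell when an array of NTC or of PRMT5 shRNA 2 was left out, as did the count over all genes. These comparisons share the NTC arrays, so their directions are not independent of each other. LAMA2, FBLN2, COL28A1, LUM, LOX, COL4A2, COL9A3 and LAMC1 were called higher in each, and COL14A1, FBN1, ITGA9, ITGA1, ITGA2 and LOXL3 lower in each. Treating both hairpins as 1 group of 4 arrays, so that the spread includes the difference between hairpins, left 12 calls (7 higher, 5 lower), with 12.1% of all genes called. LAMB1, LAMA5, COL4A4, COL2A1, COL9A3, FBN2, ITGA1, ITGA6, ITGB5 and LOXL4 did not pass there (limma, adjusted p from 0.056 to 0.33).

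The hairpins were compared directly, since PRMT5 itself was higher with PRMT5 shRNA 2 than with PRMT5 shRNA 1 (log2 difference 1.09 ± 0.08, SE). Of the 51 genes, 14 differed, 11 higher and 3 lower with PRMT5 shRNA 2, beside 25.7% of all genes (18.3% higher, 7.38% lower). The count fell without PRMT5 shRNA 1 replicate 2, as did the count over all genes. Without probe sets of the _x_at and _s_at kinds it was 9 of 37 tested genes, beside 25.7% of all genes. ITGA1 had the largest difference, with 57.5 and 58.9 for PRMT5 shRNA 2 against 31.4 and 23.4 for PRMT5 shRNA 1 (0.78 ± 0.12, SE, limma, adjusted p = 0.0018). The other kept probe set of ITGA1 differed less, averaging 45.45 for PRMT5 shRNA 2 and 37.15 for PRMT5 shRNA 1. FBLN2 was also higher with PRMT5 shRNA 2, by 0.45 ± 0.08 (limma, adjusted p = 0.0032), as were LAMA5 (0.46 ± 0.09) and LAMB1 (0.43 ± 0.05). COL26A1, at 26.4 and 29.8 for PRMT5 shRNA 2 against 12.2 and 15.3 for PRMT5 shRNA 1, differed by 0.57 ± 0.12. Its values with PRMT5 shRNA 1 were below the array medians, and it needed the arrays of PRMT5 shRNA 2 to pass the filter. COL1A1, at 40.7 and 54.0 against 30.5 and 24.6, differed by 0.54 ± 0.13. The COL1A1 difference did not pass without PRMT5 shRNA 1 replicate 2 (0.44, limma, adjusted p = 0.11) or without PRMT5 shRNA 2 replicate 2 (0.38, adjusted p = 0.11). It did not pass as the mean over probe sets either (0.25, adjusted p = 0.097), and a second kept probe set of COL1A1 averaged 17.95 in the arrays of PRMT5 shRNA 2, against 18.65 for PRMT5 shRNA 1.

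The genes that were lower with PRMT5 shRNA 2 than with PRMT5 shRNA 1 were COL5A2, FBN2 and LUM. COL5A2 had intensities of 59.1 and 68.4 with PRMT5 shRNA 2, against 103.8 and 105.2 with PRMT5 shRNA 1 (-0.60 ± 0.11, SE, limma, adjusted p = 0.0038). Against NTC (99.0 and 83.7), COL5A2 was called lower with PRMT5 shRNA 2 (-0.43 ± 0.11) and did not pass with PRMT5 shRNA 1 (0.17 ± 0.11). A second kept probe set of COL5A2 averaged 25.05 for PRMT5 shRNA 1 and 18.55 for PRMT5 shRNA 2, against 16.9 for NTC, so it was not lower than NTC with PRMT5 shRNA 2. LUM differed by -0.47 ± 0.08 (limma, adjusted p = 0.0025), and without _x_at and _s_at probe sets it did not pass (-0.31, adjusted p = 0.066). FBN2 differed by -0.52 ± 0.12 (adjusted p = 0.010). FBN2 did not pass this comparison without PRMT5 shRNA 1 replicate 2 (-0.48, limma, adjusted p = 0.070) or without PRMT5 shRNA 2 replicate 1 (-0.43, adjusted p = 0.053). COL28A1 (-0.00 ± 0.10), COL4A2 (-0.02 ± 0.12), ITGA2 (-0.03 ± 0.13) and FBN1 (0.06 ± 0.11) did not pass it.

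**Figure D3:**
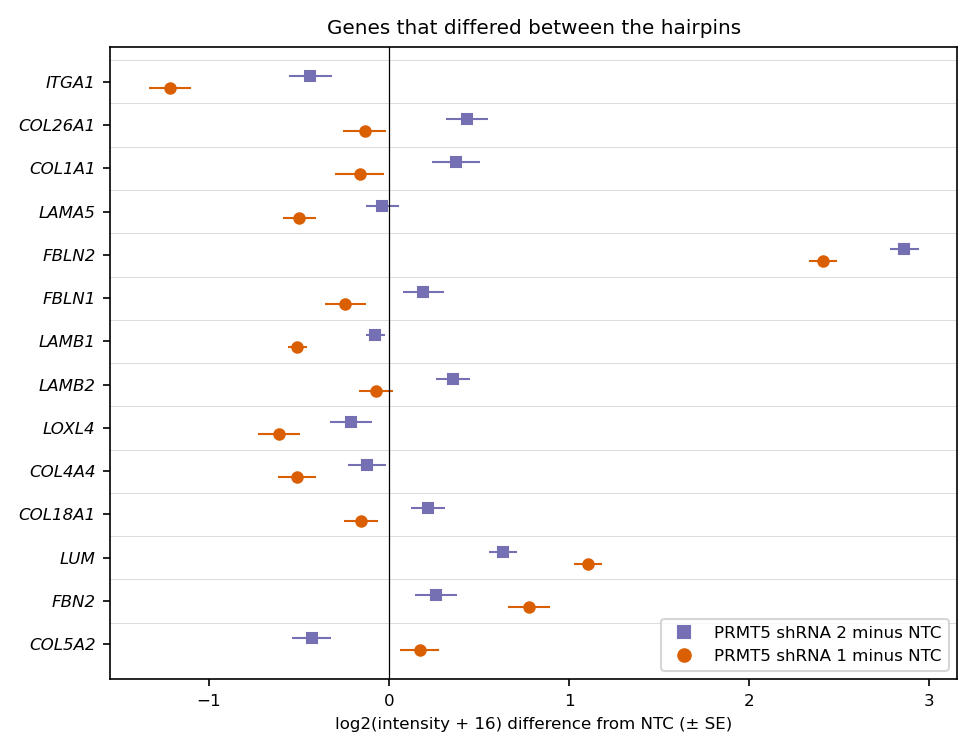
Log2(intensity + 16) difference from NTC, with SE bars, for PRMT5 shRNA 2 (squares) and PRMT5 shRNA 1 (circles), for the 14 genes called in the direct comparison of the hairpins. COL5A2, FBN2 and LUM, at the bottom, are lower with PRMT5 shRNA 2, and the other genes are higher with it.

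Genes that make, cleave or sense matrix were read from the same fit. Enzymes of collagen synthesis and folding had 4 of 15 members higher and 5 lower, beside 15.4% of all tested genes higher and 17.0% lower. PLOD2, which hydroxylates collagen lysines for cross-linking, had intensities of 1971.4 and 1848.9 with PRMT5 shRNA 1 and of 1794.1 and 1872.2 with PRMT5 shRNA 2, against 1013.2 and 1053.6 with NTC (0.85 ± 0.05, SE, limma, adjusted p = 3.9e-07). P4HA2, a prolyl hydroxylase subunit, rose by 0.69 ± 0.09, and P3H2, a prolyl hydroxylase of basement membrane collagens (-0.90 ± 0.09), and ADAMTS3, a procollagen peptidase (-0.81 ± 0.06), fell. Matrix proteases and their inhibitors had 4 of 9 higher and 1 lower, against the same 15.4% and 17.0% of all genes. The protease inhibitor SERPINE2 (1.25 ± 0.09) and the metalloproteinase inhibitors TIMP4 (0.48 ± 0.10) and TIMP2 (0.43 ± 0.06) rose. The plasminogen activator PLAT fell (-1.07 ± 0.11). TIMP4 was below the array medians with NTC (12.9 and 10.2) and passed the filter only through the knockdown arrays. PLAT was near background in knockdown arrays (5.3 to 17.1). Under other processing choices the difference ran from 0.20 to 0.89 for TIMP4 and from -1.85 to -0.48 for PLAT. TIMP4 lost its call without NTC replicate 2 (0.41, limma, adjusted p = 0.051).

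Other matrix proteins had 5 of 21 members higher and 5 lower, beside 15.4% of all tested genes higher and 17.0% lower. TNC, tenascin C, had intensities of 19.3 and 20.8 with PRMT5 shRNA 1 and of 13.4 and 17.3 with PRMT5 shRNA 2, against 90.0 and 80.7 with NTC. TNC fell by 1.59 ± 0.10 (SE, limma, adjusted p = 5.5e-07). Its knockdown arrays lay close to the array medians, and the difference ran from -2.22 to -0.87 under other processing choices. SMOC2 (-1.33 ± 0.08) and SPOCK1 (-1.0 ± 0.06), both related to SPARC, also fell, and FRAS1, a basement membrane protein of skin and kidney, rose (0.74 ± 0.09). Integrin adhesion proteins had 4 of 21 higher and 7 lower in the average, against the same shares. With PRMT5 shRNA 1 alone 4 were called higher and 10 lower, beside 16.2% and 23.2% of all genes. With PRMT5 shRNA 2 alone 2 were called higher and 0 lower, beside 13.1% and 8.42%. The adaptors PARVA (0.50 ± 0.09) and NEDD9 (0.39 ± 0.05) rose, and TLN2, a talin that activates integrins (-0.50 ± 0.11), and TNS3, a tensin (-0.40 ± 0.07), fell. The fall of TNS3 came from PRMT5 shRNA 1 (-0.88 ± 0.08), and PRMT5 shRNA 2 (0.08 ± 0.08) did not pass. Among 9 other matrix receptors, 2 were higher and 2 lower in the average, beside 15.4% of all tested genes higher and 17.0% lower. The syndecans SDC2 (-0.50 ± 0.07) and SDC4 (0.29 ± 0.07) moved in opposite directions, DDR2 fell (-0.37 ± 0.12) and CD151 rose (0.18 ± 0.06). SDC4 lost its call without NTC replicate 1 (0.24, limma, adjusted p = 0.088). DDR2 lost it without NTC replicate 1 (-0.40, limma, adjusted p = 0.11), NTC replicate 2 (-0.33, adjusted p = 0.17), PRMT5 shRNA 1 replicate 1 (-0.30, adjusted p = 0.094) or PRMT5 shRNA 2 replicate 1 (-0.29, adjusted p = 0.086), and also as the mean over probe sets (-0.15, adjusted p = 0.26) and with no filter (adjusted p = 0.076). CD151 lost it without NTC replicate 1 (0.14, adjusted p = 0.27), NTC replicate 2 (0.23, adjusted p = 0.071), PRMT5 shRNA 1 replicate 1 (0.19, adjusted p = 0.065) or PRMT5 shRNA 1 replicate 2 (0.18, adjusted p = 0.081). With both hairpins as 1 group, SDC2, SDC4, DDR2, CD151, TLN2, TNS3 and TIMP4 did not pass.

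**Figure D4:**
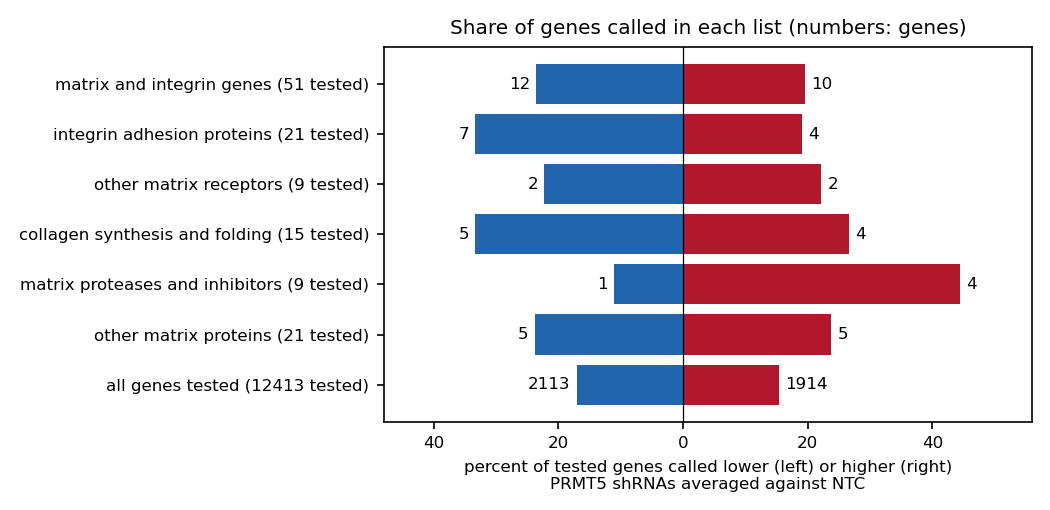
Percent of tested genes called lower (left of 0) or higher (right of 0) with both PRMT5 hairpins averaged against NTC, for each list and for all tested genes; the numbers at the bars count genes. Of the matrix and integrin genes, 12 were lower and 10 higher.

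The 39 dim genes had mean intensities of 0.6 to 12.8 over the 6 arrays, with a median of 4.32 and no single value above 16.1 (ITGB4 with PRMT5 shRNA 1). Besides those named above, the dim genes were further collagens, among them COL6A2, COL6A3, COL10A1, COL11A1 and COL12A1, and FBN3. When all genes were tested without the filter, only ITGA8 of the dim genes was called (-0.31, limma, adjusted p = 0.023), with mean intensities of 3.65 and 3.30 for the hairpins and 8.15 for NTC, too near background to give a size. These values say that the signal was near background, not that the transcripts were absent.

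Of the markers of other cell types, only ACTA2 (lower) and LYZ (higher) were called in the average. Summed over the 10 fibroblast and smooth muscle markers, intensities were 90.2 to 94.9 with PRMT5 shRNA 1 and 133.0 to 134.9 with PRMT5 shRNA 2, against 206.7 to 212.6 with NTC. The sum follows ACTA2, smooth muscle actin, which fell by 1.60 ± 0.09 (SE, limma, adjusted p = 2.7e-07), while MYH11 did not pass (-0.08). The stromal collagens COL1A2 and COL3A1 and the fibroblast markers PDGFRA, PDGFRB and THY1 were dim in every group. Over 4 immune markers the sums were 141.7 to 142.5 with PRMT5 shRNA 1 and 81.4 to 89.2 with PRMT5 shRNA 2, against 39.4 to 46.4 with NTC, following LYZ, with PTPRC, CD14 and CD3E dim. The part of these markers in the matrix changes was not tested. Over 10 luminal markers the sums were 17582 to 18565 with PRMT5 shRNA 1 and 17536 to 18867 with PRMT5 shRNA 2, against 15748 to 15752 with NTC. The luminal markers did not move as 1 group. In the average 5 of 10 were higher and 3 lower, beside 15.4% and 17.0% of all tested genes. KLK3, prostate-specific antigen, rose by 1.13 ± 0.05 (SE, limma, adjusted p = 3.4e-08), at 2587.2 and 2665.6 with PRMT5 shRNA 1 and 2674.3 and 2464.8 with PRMT5 shRNA 2, against 1186.4 and 1168.9 with NTC. HOXB13 (-0.28 ± 0.07), TMPRSS2 (-0.21 ± 0.07) and ERG (-0.21 ± 0.06) fell.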

How the data were processed

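Gene expression was measured in 6 arrays of VCaP cells, 2 for each of 3 hairpins, grouped by the sample titles. The authors deposited 1 linear intensity for each of 54675 probe sets and array. Per the submitters' processing notes these come from MAS5, whose version is not given in the sources used here. The 2% trimmed mean of the deposited intensity was near 150.0 on each array, which shows that the arrays share a scale, and they were not rescaled. There were 0 value columns of no sample. The number of arrays limits the precision.

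The 62 control probe sets were left out. A probe set was kept if it reached its array's median in at least 2 of 6 arrays, and the kept probe set with 1 gene symbol and the highest mean log2 value stood for a gene. The fit on log2(intensity + 16) used limma 3.58.1 under R 4.3.3, with 3 residual degrees of freedom, a trend in the prior variance, a coefficient per hairpin and two-sided tests adjusted by Benjamini-Hochberg over all tested genes. The fit was tested on simulated data. Genes named are the called ones with the highest and lowest averaged difference (up to 12 each), the 8 with the largest difference between hairpins, the 6 brightest with NTC, the 6 brightest called in no comparison, the type IV collagen pairs, and up to 4 of each related list; other genes are named in counts or as not passing. Members and lists were chosen with earlier results of these data known. The labels used here give no batch or scan date, so none was tested. Alternatives were other pseudocounts, filters, scaling, probe set rules and variance models, a replicate block, 1 group for both hairpins, and each array left out.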

Additional observations from a re-analysis of the deposited data

Results flagged for a closer look

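The 8 largest of the tested differences between the hairpins among these genes, on the log2(intensity + 16) scale as PRMT5 shRNA 2 minus PRMT5 shRNA 1, were singled out because effects under the same contrast with NTC differed by a test of the difference itself (limma, direct comparison of the hairpins). ITGA1 differed by 0.78, COL26A1 by 0.57, COL1A1 by 0.54, LAMA5 by 0.46 and FBLN2 by 0.45, all higher with PRMT5 shRNA 2. COL5A2 differed by -0.60, FBN2 by -0.52 and LUM by -0.47, all lower with PRMT5 shRNA 2. Under other probe set rules COL1A1 (0.25 as the mean over probe sets) and LUM (-0.31 without _x_at and _s_at probe sets) did not pass. The other kept probe set of ITGA1 showed a smaller difference. COL26A1 was below the array medians with PRMT5 shRNA 1 and needed the arrays of PRMT5 shRNA 2 to pass the filter. For each of the 8 genes, the 2 arrays of PRMT5 shRNA 2 did not overlap the 2 arrays of PRMT5 shRNA 1. As the genes were chosen by this comparison, that adds no support. PRMT5 signal also differed between the hairpins (1.09 ± 0.08, SE), and its part in these differences was not tested.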

How the results depend on the processing

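In all, 992 values of named genes were recomputed under the alternatives; 919 kept their direction and their side of the threshold, 59 lost and 1 gained a call, and 13 changed sign, all of the last in genes that passed under neither setting. Of the 22 genes called in the average, 10 kept the call under every alternative that gave a value (LAMA2, FBLN2, COL28A1, LUM, LOX, COL4A2, COL14A1, FBN1, ITGA9 and ITGA2). Restricting the test to a mean intensity of at least 50 left 23 of these genes. The calls among the 23 were 14, 13 and 13 for the average, PRMT5 shRNA 1 and PRMT5 shRNA 2 against NTC. Of all 9899 genes tested there, 34.3%, 42.6% and 22.1% were called. Both hairpins as 1 group gave 12 calls in the average, beside 12.1% of all genes. Without _x_at and _s_at probe sets 9 of 37 genes differed between the hairpins, beside 25.7% of all genes. Leaving out each array gave 16 to 23 calls in the average, 19 to 22 for PRMT5 shRNA 1, 11 to 18 for PRMT5 shRNA 2 and 8 to 14 between the hairpins; where it leaves 1 array in a group, that array is assumed to vary like the other groups, and fewer arrays also lower the power. For other alternatives that moved a count or a call the cause was not tested. With the replicate block the counts were 22, 21, 17 and 14, beside 29.9%, 36.8%, 19.7% and 22.9% of all genes. CD151 lost its call with this block (0.18, limma, adjusted p = 0.053). The labels do not say whether equal replicate numbers pair the arrays. The replicate differences correlated at -0.09 (NTC and PRMT5 shRNA 1), -0.18 (NTC and PRMT5 shRNA 2) and -0.00 (the PRMT5 hairpins), which does not settle it. A block with the NTC numbers crossed, chosen after seeing the data, gave 22, 22, 20 and 16. With that crossed block 36.1%, 42.7%, 25.5% and 29.9% of all genes were called. The mean over probe sets turned COL5A2 to 0.032, COL1A1 to -0.012 and ITGB1 to 0.029, and without _x_at and _s_at probe sets ITGB1 was 0.043. ITGA5 turned to -4.751e-04 with a pseudocount of 1 and -1.226e-04 after quantile normalization. Leaving out an array gave -0.046 to 0.047 for ITGA5, -0.028 to 0.19 for COL4A5, -0.011 to 0.20 for COL6A1, -0.19 to 0.023 for ITGB8 and -0.086 to 0.14 for COL4A6. Over all genes, the count in the average was 4027, against 1505 with 1 group, 2202 without NTC replicate 1 and 2313 without NTC replicate 2. It was 4883 for PRMT5 shRNA 1, against 3196 without NTC replicate 1 and 3189 without its replicate 2. It was 2668 for PRMT5 shRNA 2, against 1560 without NTC replicate 1 and 1713 without NTC replicate 2. Between the hairpins it was 3192, against 1732 and 1345 without replicates 1 and 2 of PRMT5 shRNA 1 and 2025 without replicate 2 of PRMT5 shRNA 2. Between pseudocounts of 64 and 1, called differences moved in size, for example from 0.25 to 0.79 for FBN2, from 0.38 to 0.85 for LOX, from 1.59 to 2.76 for COL28A1 and from -0.56 to -1.29 for ITGA9.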
